A study of Medicago ruthenica with 9 samples.

Results

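The unigenes described here are 167 UDP-glycosyltransferase transcripts of *Medicago ruthenica*, a perennial forage legume, measured in leaves after drought and after rewatering. The paper describes the plants as a cultivar of higher resistance to drought and cold. They were taken by annotation: the closest-protein description or the SwissProt description had to name a UDP-glycosyltransferase, a UDP-glucosyltransferase, a family 1 glycosyltransferase or an O-glucosyltransferase, descriptions naming zeatin or cytokinin were left out, and the unigene had to reach 1 TPM in at least 3 libraries. TPM gives the share of a library's transcripts that a unigene holds after correction for its length, so levels can be compared between unigenes. The description matched 189 of the 52457 unigenes of the deposited table, 22 of these were under the TPM limit, and the 167 that remained are part of the 44538 unigenes that passed the same limit and were tested. Of the 167, 109 reached 1 TPM in all 9 libraries and 6 did so in just 3. No member passed the limit through a single group. The members nearest the limit were *FG3* (TRINITY_DN13119_c0_g1) and *UGT73D1* (TRINITY_DN10557_c0_g1), for which the 3 highest libraries reached down to 1.04 and 1.08 TPM. Just outside it stood TRINITY_DN20789_c0_g4 and TRINITY_DN19972_c1_g5, where the 3 highest libraries reached down to 0.95 and 0.94 TPM.

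The study sequenced poly(A) RNA from leaves of 3 groups with 3 libraries each, and every group was 4 weeks old at the start and grown 8 plants to a pot. In RW, water was withheld for 15 days and leaves were taken 2 days after soil was saturated again. In DS, water was withheld for 15 days, which brought relative soil moisture to 20%, and leaves were taken on that day. In CK, plants were watered throughout with soil moisture above 80%, and leaves were taken on the same day as DS, so RW leaves were also harvested later than CK leaves. The sources call the libraries biological replicates and do not say whether each came from its own pot, so the p-values speak for these 9 libraries, whose spread may be partly technical. In bulk leaves, fewer cells of a type and less RNA per cell cannot be told apart.

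UDP-glycosyltransferases (UGTs) move a sugar, most often glucose, from a UDP-sugar onto small molecules such as flavonoids, saponins, salicylate, auxins and foreign compounds. The sugar makes the acceptor more soluble and usually less reactive, and allows storage in the vacuole. Plant UGTs are numbered by sequence family, and the family number is a weak guide to the acceptor, since 1 enzyme often takes several.

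Gene symbols below are those of the closest SwissProt entry, often from *Arabidopsis* or soybean, can differ from the deposited description, and do not show that the *M. ruthenica* protein acts on the same substrate. A family number was given for 109 members, in 17 families. UGT73 was the biggest family with 20 members, followed by UGT85 with 16, UGT74 with 12, and UGT71 and UGT89 with 11 each. A further 33 members were described as flavonoid or anthocyanidin glucosyltransferases without a family number. Not all members are enzymes of small molecules: 7 were described as protein O-glucosyltransferases, relatives of the fly enzyme rumi that glucosylates the receptor Notch, and 3 were the pollen tube protein TURAN, a sterol glucosyltransferase and a unigene that SwissProt matches to CBSX2 while its description names a UGT. The plant UGT domain was annotated in 137 members, and 159 had their closest protein in *Medicago truncatula*. Many unigenes are pieces: the median length was 571 bp (202 to 2197 bp), and 39 members reached 1200 bp. The 167 members fell into 87 Trinity components, the read clusters from which unigenes were assembled, and 115 of them shared a component with another member, so near-identical copies, alleles and pieces of 1 gene can share reads.

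All 52457 unigenes of the deposited table together held 994748 to 996266 TPM per library, and the number of reads behind a TPM value is unknown. RW replicate 2 held 3618 unigenes at 5 TPM or more that were under 0.5 TPM in every other library. The same count was not made for the other libraries. Of these, 9 had a UGT description, at 5.19 to 19.9 TPM in that library. Unigenes of this kind cannot reach 1 TPM in 3 libraries and so cannot be members. Their absence from the members says nothing on member levels in RW replicate 2. Across members, the correlation of log2 levels between libraries ran from 0.831 to 0.937 within groups and from 0.741 to 0.933 between groups (36 library pairs of 9 libraries, which share 1 assembly).

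In sum, the members took more of the transcripts in drought than in either other group. Their summed TPM was 5051, 3640 and 5525 in RW replicates 1 to 3, against 7164, 8737 and 8826 in DS replicates 1 to 3, and 4364, 5905 and 4117 in CK replicates 1 to 3. All 3 DS libraries lay above all RW and CK libraries, and the RW and CK ranges overlapped. As a share of the library this was 0.366% to 0.555% in RW, 0.719% to 0.886% in DS and 0.414% to 0.594% in CK. The 10 most abundant members held 23.2% to 57.6% of it, with 27.3%, 57.6% and 45.9% in DS replicates 1 to 3. The weight of these few unigenes in the sum thus differed between libraries. UGT73 alone summed to 1457, 765 and 1570 TPM in RW, 1994, 4398 and 3287 TPM in DS, and 940.2, 1963 and 1026 TPM in CK, with DS above all others. UGT85, by contrast, overlapped in all groups, with 460.0 to 834 TPM in RW, 639.9 to 971 TPM in DS and 705 to 1011 TPM in CK.

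**Figure D1:**
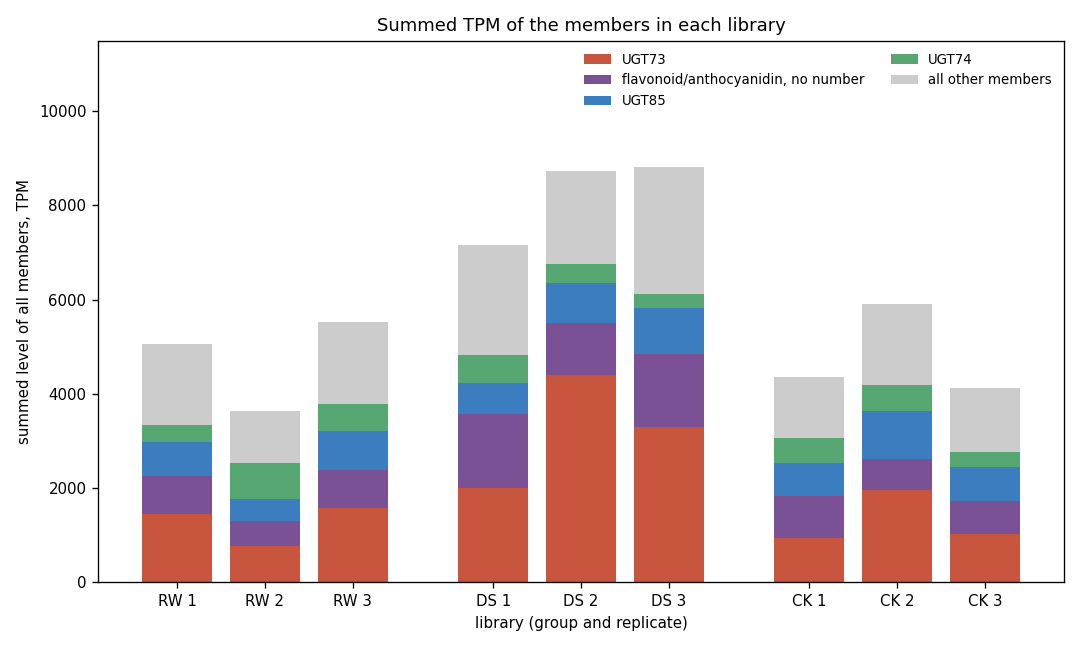
Summed TPM of the 167 members in each of the 9 libraries (bars from 0), split into UGT73, flavonoid or anthocyanidin enzymes without a family number, UGT85, UGT74 and all others. DS libraries reach 7164 to 8826 TPM, above RW libraries at 3640 to 5525 TPM and CK libraries at 4117 to 5905 TPM, and much of the height in DS is UGT73.

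The DS vs. CK comparison asks which members differ between droughted and watered leaves. Of the 167 members, 12 were called higher in DS (7.19%) and 2 lower (1.2%), where a call needs an adjusted p under 0.05 and a change of more than 1 on the log2 scale of TPM + 1. Over all 44538 unigenes tested, 2.39% were called higher and 2.57% lower. At an unadjusted p under 0.05 with the same fold limit, 23 members were higher and 8 lower, beside 5.34% and 8.94% of all tested. The members' median log2 fold change was 0.15, beside −0.19 for all unigenes tested. All 3 DS libraries lay above all 3 CK libraries in 21 members (12.6%, against 8.86% of all tested) and below them in 15 (8.98%, against 18.1%). The 12 came from 10 Trinity components. The count depended on the libraries: 4 members were called higher without CK replicate 3, 6 without CK replicate 1 or any 1 DS library, and 7 without CK replicate 2. The 2 lower calls became 0 without CK replicate 1 or 3 and 1 without DS replicate 1, DS replicate 2 or RW replicate 3.

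The RW vs. DS comparison asks what differs after rewatering. Here 8 members were called lower in RW (4.79%, against 2.15% of all tested) and 1 higher (0.599%, against 1.79%). At the unadjusted limit 18 members were lower and 8 higher, beside 4.95% and 7.07% of all tested. The median log2 fold change was −0.09, beside 0.17 for all unigenes tested. All 3 RW libraries lay below all 3 DS libraries in 21 members (12.6%, against 8.01% of all tested) and above them in 15 (8.98%, against 15.7%). Both comparisons use the same DS libraries, so their values are given side by side and not as support for each other. The 8 lower calls became 4, 3, 3, 2 and 1 without DS replicate 1, DS replicate 2, RW replicate 1, RW replicate 2 and RW replicate 3, and the 1 higher call became 0 without DS replicate 1 or 2 or RW replicate 1 or 3, and 2 without RW replicate 2.

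Between RW and CK, 0 members were called higher and 0 lower by limma, beside 0% and 0.00225% of all unigenes tested. At an unadjusted p under 0.05 with the same fold limit, 3 members were higher and 1 lower in RW, beside 1.94% and 2.4% of all tested. The median log2 fold change was 0.10, beside −0.02 for all unigenes tested. RW libraries lay above all CK libraries in 7 members (4.19%, against 5.35% of all tested) and below them in 2 (1.2%, against 6.44%).

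**Figure D2:**
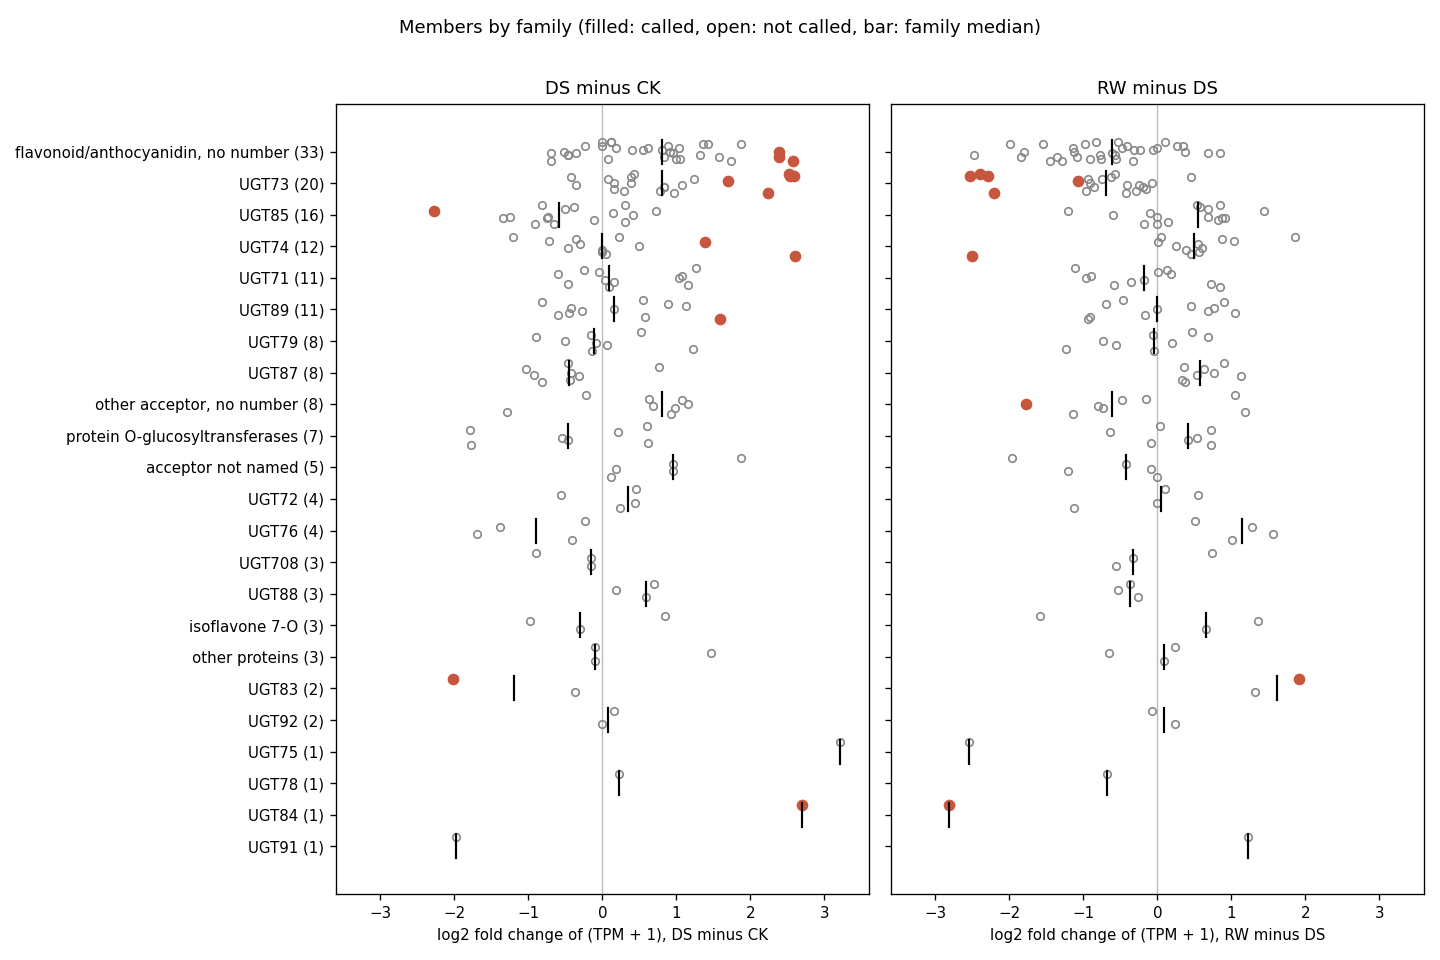
Log2 fold change of TPM + 1 for each of the 167 members, by family (member number in brackets), for DS minus CK (left) and RW minus DS (right). Filled points were called, open points were not, and the bar is the family median. The called UGT73 unigenes sit at 1.70 to 2.59 on the left and at −2.53 to −1.07 on the right.

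The member with the firmest difference was *UGT84B2* (TRINITY_DN20760_c0_g2), whose *Arabidopsis* family holds enzymes that join glucose to the carboxyl group of auxin and of phenylpropanoid acids. It held 43.2, 30.4 and 44.4 TPM in RW, 302, 199 and 363 TPM in DS, and 60.1, 28.8 and 44.3 TPM in CK. The lowest DS library lay more than 3 times above the highest library of the other groups. The log2 fold change was 2.69 (SE 0.31, adjusted p = 0.00159) for DS vs. CK and −2.81 (SE 0.31, adjusted p = 0.00131) for RW vs. DS. Both calls were kept in all 9 fits that left out 1 library, with 2.41 to 2.93 and −3.06 to −2.63. It was the sole member of its family that the rule took.

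UGT73 held 5 of the 12 members higher in DS and 5 of the 8 lower in RW. Each was 25% of the family, against 2.39% and 2.15% of all tested. None of the 20 UGT73 members was called the other way. UGT73 enzymes include flavonoid, saponin, brassinosteroid and mycotoxin glucosyltransferases. The family median was 0.80 for DS vs. CK and −0.69 for RW vs. DS, and it kept its sign under both other scalings. The other 15 UGT73 members were not called in either comparison.

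*UGT73C5* (TRINITY_DN19341_c0_g1), whose *Arabidopsis* namesake glucosylates the fungal toxin deoxynivalenol and brassinosteroids, had the smallest change and the smallest error of the 5. It held 28.6, 30.2 and 34.9 TPM in RW, 78.1, 52.8 and 71.1 TPM in DS, and 22.1, 21.5 and 16.4 TPM in CK, and no 2 groups overlapped. The log2 fold change was 1.70 for DS vs. CK (SE 0.21, adjusted p = 0.00209), kept in all 9 fits that left out 1 library. For RW vs. DS it was −1.07 (adjusted p = 0.0225), a call that ended without DS replicate 1 or 3 or any 1 RW library (−1.15 to −0.95), with a pseudocount of 5 and in a fit of the 6 RW and DS libraries alone. RW stayed above CK by 0.63 with an unadjusted p of 0.0143, under the fold limit.

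*UGT73C6* (TRINITY_DN19341_c0_g2) is from the same component, and its *Arabidopsis* namesake adds glucose to position 7 of flavonol glycosides. It held 43.4, 23.5 and 68.3 TPM in RW, 197, 215 and 258 TPM in DS, and 63.4, 60.6 and 13.6 TPM in CK. *UGT73C3* (TRINITY_DN16444_c0_g4) held 52.9, 38.8 and 73.4 TPM in RW, 222, 250.2 and 330.0 TPM in DS, and 70.9, 65.4 and 16.9 TPM in CK. In both, every DS library lay far above the rest, and CK replicate 3 was the lowest of the 9. The log2 fold changes were 2.52 and 2.59 for DS vs. CK (adjusted p = 0.0329 and 0.0179), and −2.40 and −2.29 for RW vs. DS (adjusted p = 0.0457 and 0.0323). For *UGT73C6* the DS vs. CK call ended without CK replicate 3, any 1 DS library or RW replicate 1 (1.82 to 2.61) and in the fit of the 6 libraries of the pair, and the RW vs. DS call without CK replicate 2, any 1 DS library or any 1 RW library (−2.76 to −2.01), with a pseudocount of 0.1 and under quantile normalization. For *UGT73C3* the DS vs. CK call ended without DS replicate 2 or 3 (2.43 to 2.63), and the RW vs. DS call without any 1 DS or RW library (−2.52 to −2.06).

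*UGT73B4*, named after an *Arabidopsis* enzyme that can conjugate reduction products of the explosive TNT, was the closest entry of several of the most abundant members. TRINITY_DN24894_c1_g2 held 116, 78.3 and 114 TPM in RW, 411, 1107 and 453 TPM in DS, and 101, 200.4 and 50.3 TPM in CK. TRINITY_DN15516_c0_g5 held 135, 88.4 and 105 TPM in RW, 279, 1068 and 426 TPM in DS, and 90.8, 194 and 66.2 TPM in CK. DS did not overlap the other groups in either unigene, and DS replicate 2 was more than 2 times as high as the other DS libraries. Their log2 fold changes were 2.54 and 2.24 for DS vs. CK (adjusted p = 0.0227 and 0.0359) and −2.53 and −2.21 for RW vs. DS (adjusted p = 0.0247 and 0.0430). For the first, the DS vs. CK call ended without CK replicate 1 or 3 or DS replicate 2 (2.04 to 2.54) and in the fit of the pair alone, and the RW vs. DS call without DS replicate 2 or any 1 RW library (−2.63 to −2.08). For the second, the DS vs. CK call ended without CK replicate 1 or 3, DS replicate 2 or 3, or RW replicate 1 or 3 (1.70 to 2.36), and the RW vs. DS call without CK replicate 1, DS replicate 2 or 3, or any 1 RW library (−2.37 to −1.67). Both calls of the second also ended under quantile normalization and in the fit of the pair alone.

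The remaining abundant UGT73 unigenes varied as much within groups as between them. *UGT73B1* (TRINITY_DN19612_c1_g5), the most abundant member, held 377, 192 and 464 TPM in RW, 215, 600.5 and 624 TPM in DS, and 90.5, 479.6 and 247 TPM in CK. Another *UGT73B4* unigene (TRINITY_DN19612_c1_g4) held 275, 109 and 284 TPM in RW, 142, 470.3 and 614 TPM in DS, and 59.2, 305 and 171 TPM in CK. In both, RW replicate 2, DS replicate 1 and CK replicate 1 were the lowest of their groups and the groups overlapped. Neither was called, with log2 fold changes of 0.97 and 1.24 for DS vs. CK. A further *UGT73B4* unigene (TRINITY_DN15516_c0_g2) held 187, 53.6 and 147 TPM in RW, 166, 265 and 238 TPM in DS, and 187, 280.4 and 169.9 TPM in CK, with a DS vs. CK change of 0.08. It shares a component with the called TRINITY_DN15516_c0_g5. *UGT73C2* (TRINITY_DN16444_c0_g3), from the component of *UGT73C3*, stayed between 0.47 and 2.63 TPM in all 9 libraries.

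Some of these unigenes had almost the same profile over the libraries. Among the 378 pairs that the 28 named members with a level above 0 in every library allow, 9 had a log2 ratio whose SD over the 9 libraries was under 0.3, where the median over all pairs was 1.12. The ratio of *UGT73C3* to *UGT73C6* lay between 1.08 and 1.65. The ratio of the 2 called *UGT73B4* unigenes lay between 0.759 and 1.47. These pairs come from different Trinity components. *UGT73B1* TRINITY_DN19612_c1_g5 stood at 2.09 to 2.59 times the level of TRINITY_DN19846_c0_g2, which is closest to the tobacco scopoletin enzyme *TOGT1*, and at 1.67 to 2.23 times that of TRINITY_DN21723_c1_g1, which has no symbol. Pieces of 1 gene or copies that share reads would be counted more than once in the numbers above, which was not tested. With 1 unigene kept per component, the one with the highest mean, 52 members remained in the test and 6 were called higher in DS vs. CK. Of the 14 members called in DS vs. CK, 8 were still in that test, and all 8 were called again.

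**Figure D3:**
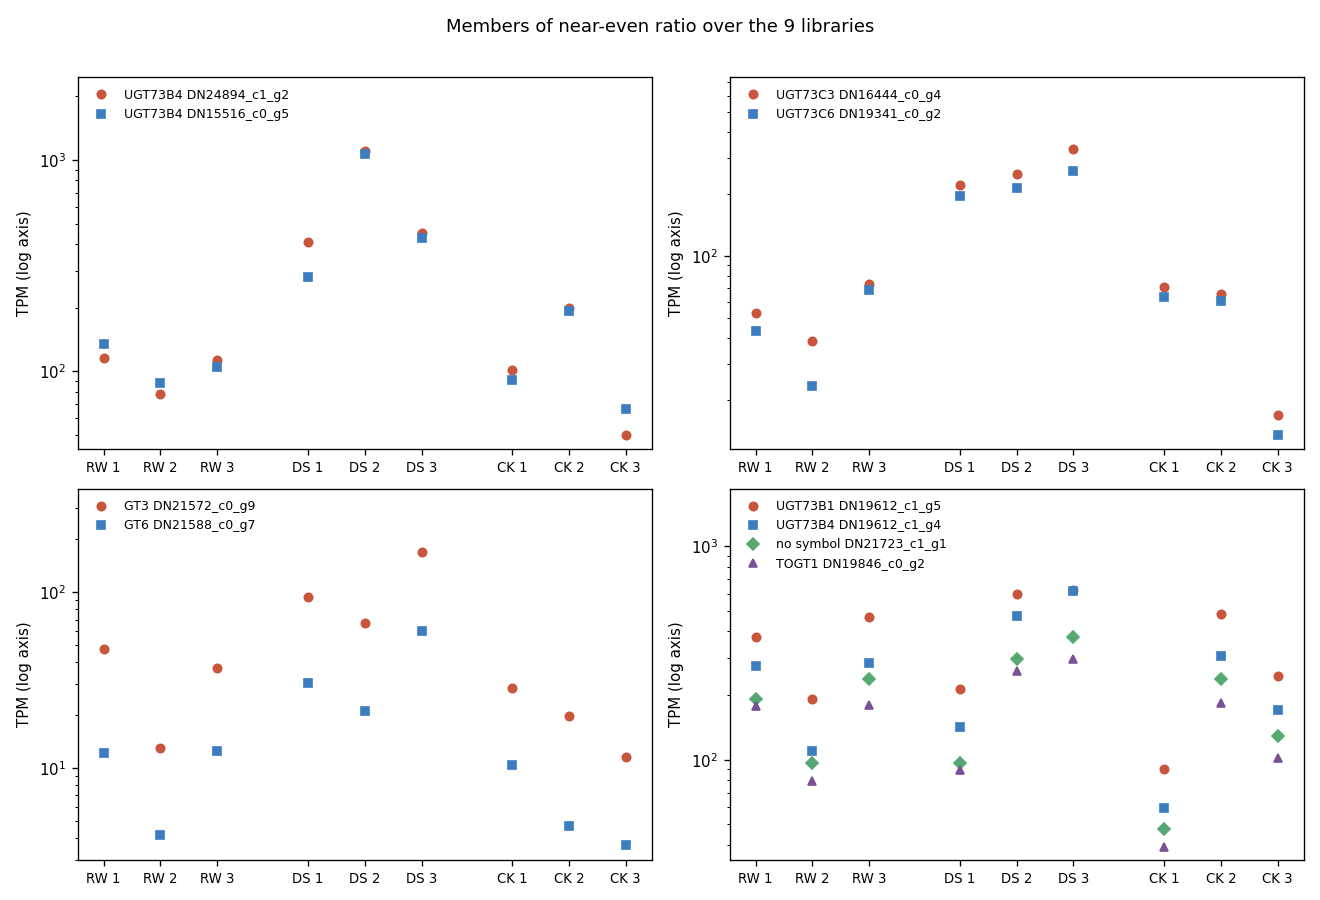
TPM on a log axis in each library (RW, DS and CK, replicates 1 to 3) for 3 pairs and 1 set of 4 members whose ratios stayed nearly even. The points keep nearly the same distance in all 9 libraries, apart from the *UGT73B4* pair, whose members change places (ratio 0.759 to 1.47): *UGT73C3* is 1.08 to 1.65 times *UGT73C6*, and *GT3* is 2.74 to 4.22 times *GT6*.

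Among the 33 flavonoid and anthocyanidin glucosyltransferases without a family number, 3 were called higher in DS vs. CK and 0 lower. The 3 are 9.09%, against 2.39% of all tested. By limma 0 were called in either direction in RW vs. DS. At an unadjusted p under 0.05 with the fold limit, 9 were higher in DS vs. CK and 7 lower in RW vs. DS. Of all tested, 5.34% and 4.95% passed these limits. Enzymes of this kind glucosylate the 3-hydroxyl of anthocyanidins and flavonols, a step that stabilizes these pigments. The group median was 0.81 for DS vs. CK and −0.61 for RW vs. DS. *GT3* (TRINITY_DN21572_c0_g9) held 47.3, 13.1 and 37.1 TPM in RW, 94.3, 67.3 and 169 TPM in DS, and 28.5, 19.8 and 11.6 TPM in CK. *GT6* (TRINITY_DN21588_c0_g7) held 12.1, 4.16 and 12.6 TPM in RW, 30.5, 21.1 and 60.0 TPM in DS, and 10.4, 4.68 and 3.63 TPM in CK. DS lay above every RW and CK library in both. Their DS vs. CK changes were 2.39 and 2.38 (adjusted p = 0.0290 and 0.0289), and both calls ended without CK replicate 2 or 3 or DS replicate 1 or 3 (1.98 to 2.46). For RW vs. DS they stood at −1.80 and −1.84 (adjusted p = 0.0899 and 0.0830).

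The third, TRINITY_DN24894_c1_g1, has no symbol and low levels: 2.08, 2.08 and 2.42 TPM in RW, 9.11, 18.8 and 2.29 TPM in DS, and 0, 0.63 and 0.89 TPM in CK. DS lay above CK but overlapped RW, since DS replicate 3 was as low as the RW libraries. The DS vs. CK change was 2.58 (adjusted p = 0.0374), and the call ended without any 1 CK library, DS replicate 1 or 2, or RW replicate 1 or 3 (1.99 to 2.77), with a pseudocount of 5 and in the fit of the pair alone. *GT7* (TRINITY_DN24813_c0_g1), chosen after its values were seen, was the most abundant of this group and differed greatly within groups. It held 34.2, 139 and 54.1 TPM in RW, 219, 234 and 16.3 TPM in DS, and 244, 67.4 and 138 TPM in CK, so that DS replicate 3 was the lowest of all 9 libraries.

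Of 12 UGT74 members, 2 were called higher in DS vs. CK and 1 lower in RW vs. DS. The shares were 16.7% and 8.33%, against 2.39% and 2.15% of all tested. The family median was −0.01 for DS vs. CK (0.18 under median-of-ratios scaling), 0.50 for RW vs. DS, where 11 of the 12 were positive and the called one was not, and 0.45 for RW vs. CK, where all 12 were positive. In *Arabidopsis*, UGT74F1 and UGT74F2 join glucose to salicylic acid, the defence hormone. *UGT74F2* (TRINITY_DN19972_c1_g2), whose description names the stevia enzyme UGT74G1, held 7.47, 1.17 and 2.85 TPM in RW, 18.2, 41.5 and 14.6 TPM in DS, and 2.69, 3.64 and 2.30 TPM in CK. *UGT74F1* (TRINITY_DN18163_c0_g1) held 22.9, 36.2 and 35.8 TPM in RW, 38.9, 27.7 and 27.1 TPM in DS, and 7.85, 10.4 and 16.8 TPM in CK. For *UGT74F2* the DS libraries lay above all others. For *UGT74F1* RW and DS overlapped, and both lay wholly above CK. Another unigene with the symbol *UGT74F2* (TRINITY_DN13642_c1_g1), outside the naming rule, held 34.4, 94.9 and 48.0 TPM in RW, 70.0, 51.0 and 39.6 TPM in DS, and 40.1, 60.9 and 35.6 TPM in CK, and was not called (0.23 for DS vs. CK and 0.05 for RW vs. DS).

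The DS vs. CK change of *UGT74F2* TRINITY_DN19972_c1_g2 was 2.6 (SE 0.52, adjusted p = 0.0227) and its RW vs. DS change −2.5 (adjusted p = 0.0294). Its calls ended without any 1 CK library or DS replicate 1 or 2 (2.17 to 2.74) in DS vs. CK, and without DS replicate 1 or 2 or RW replicate 2 or 3 (−2.64 to −2.03), and in the fit of the pair alone, in RW vs. DS. *UGT74F1* changed by 1.39 in DS vs. CK (adjusted p = 0.0303), a call that ended without CK replicate 1 or 2 or any 1 DS library (1.16 to 1.48) and in the fit of the pair alone. Its RW vs. DS change was 0.01, and its RW vs. CK change was 1.40 with an unadjusted p of 0.00104, one of the 3 members higher in RW at the unadjusted limit. *UGT74E2* (TRINITY_DN24772_c1_g1), the most abundant of the family and named after an *Arabidopsis* enzyme that glucosylates the auxin indole-3-butyric acid, held 95.2, 217 and 189 TPM in RW, 163, 93.0 and 72.1 TPM in DS, and 169, 183 and 91.8 TPM in CK. The groups overlapped and it was not called (−0.46 for DS vs. CK, adjusted p = 0.581).

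Of 11 UGT89 members, 1 was called, higher in DS vs. CK (9.09%, against 2.39% of all tested). At the unadjusted limit 1 each was higher in DS vs. CK, RW vs. DS and RW vs. CK, beside 5.34%, 7.07% and 1.94% of all tested. The called one was *UGT89B1* (TRINITY_DN14547_c0_g3). It held 15.2, 7.98 and 10.6 TPM in RW, 24.6, 15.4 and 27.5 TPM in DS, and 5.22, 9.55 and 5.65 TPM in CK, with every DS library above the others. Its DS vs. CK change was 1.59 (adjusted p = 0.0244) and ended without CK replicate 1 or 3 or DS replicate 1 or 3 (1.43 to 1.51). *UGT89B2* (TRINITY_DN21607_c0_g3), the most abundant of the family, held 21.1, 6.39 and 13.9 TPM in RW, 22.2, 9.75 and 12.8 TPM in DS, and 17.2, 21.7 and 28.2 TPM in CK, and was not called.

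The members lower in drought were *UGT83A1* and *UGT85A1*. *UGT83A1* (TRINITY_DN20888_c1_g1) held 46.4, 28.7 and 60.4 TPM in RW, 12, 6.17 and 16.0 TPM in DS, and 57.7, 34.6 and 49.2 TPM in CK. All DS libraries lay below all others and RW overlapped CK. The log2 fold change was −2.02 for DS vs. CK (SE 0.37, adjusted p = 0.0161) and 1.92 for RW vs. DS (adjusted p = 0.0212). The first call ended without CK replicate 1 or 3 (−1.97 to −1.86), the second without DS replicate 1 or 2 or RW replicate 1 or 3 (1.57 to 2.00) and in the fit of the pair alone.

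*UGT85A1* (TRINITY_DN14939_c0_g4) is a piece of 237 bp named after an *Arabidopsis* enzyme that can glucosylate the cytokinin trans-zeatin. It held 66.5, 16.0 and 53.4 TPM in RW, 19.2, 8.96 and 14.4 TPM in DS, and 66.7, 114 and 44.9 TPM in CK. DS lay below CK and overlapped RW through RW replicate 2. The DS vs. CK change was −2.28 (adjusted p = 0.0391), and the call ended without any 1 CK or DS library or RW replicate 3 (−2.6 to −1.93) and under quantile normalization.

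The other 15 UGT85 members were not called in DS vs. CK, and by limma 0 of the 16 were called in RW vs. DS. At an unadjusted p under 0.05 with the fold limit, 1 was higher and 1 lower in RW vs. DS, beside 7.07% and 4.95% of all tested. Several descriptions name glucosyltransferases of iridoids and cyanohydrins. The most abundant were *UGT85A24* (TRINITY_DN21177_c0_g2), with 144, 113 and 179 TPM in RW, 154, 283 and 234 TPM in DS and 153, 239 and 118 TPM in CK, and *UGT85A7* (TRINITY_DN26264_c1_g1). *UGT85A7* held 131, 54.3 and 146 TPM in RW, 175, 281 and 265 TPM in DS, and 111, 211 and 121 TPM in CK. DS lay above RW in the second, and the groups overlapped in all other cases. The family median was −0.58 for DS vs. CK and 0.55 for RW vs. DS.

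One member was called in RW vs. DS alone. TRINITY_DN26014_c1_g2, described as a limonoid glucosyltransferase, held 9.13, 9.72 and 4.14 TPM in RW, 29.1, 37.0 and 18.8 TPM in DS, and 8.63, 13.6 and 13.5 TPM in CK. DS lay above all other libraries. The RW vs. DS change was −1.78 (adjusted p = 0.0238) and ended without DS replicate 1 or 2 or RW replicate 3 (−1.73 to −1.44) and in the fit of the pair alone. The DS vs. CK change was 1.16 (adjusted p = 0.0974).

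**Figure D4:**
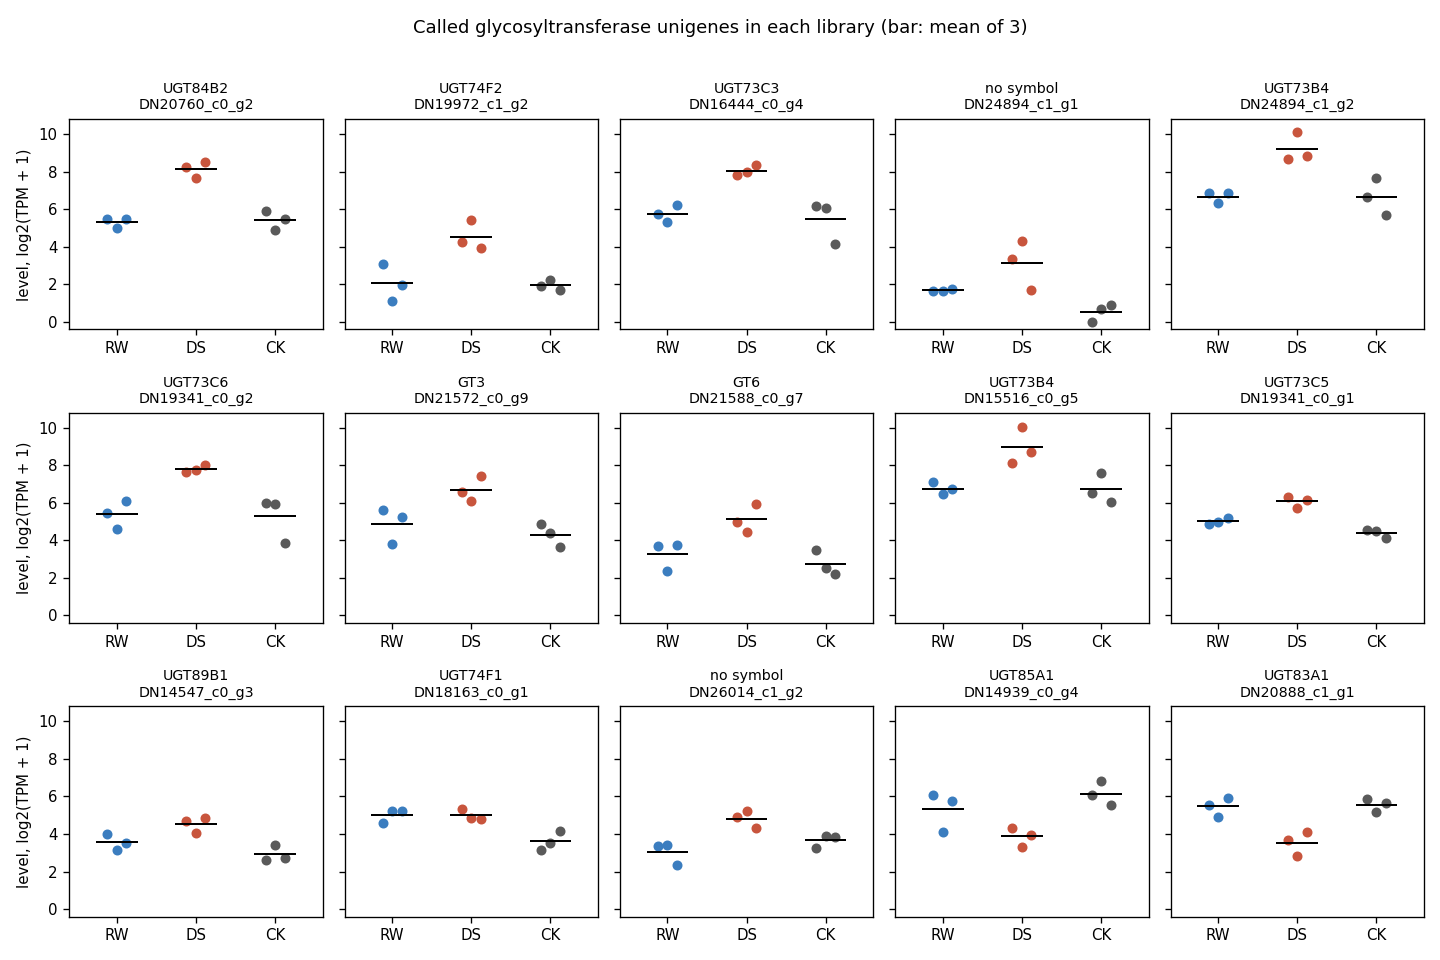
Level of the 15 members called in at least 1 comparison, as log2(TPM + 1), in each library of RW, DS and CK (points) with the mean of 3 libraries (bar). In 13 panels DS lies above CK or RW; *UGT85A1* and *UGT83A1*, the last 2, are lower in DS, and *UGT74F1* stays at the DS level in RW.

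Saponins and isoflavonoids are typical of legumes. *GmSGT2* (TRINITY_DN22998_c0_g2) is named after the soybean enzyme that adds galactose to soyasaponins and held 262, 61.3 and 272 TPM in RW, 227, 395 and 530.0 TPM in DS, and 133, 336 and 157 TPM in CK. The groups overlapped, and the DS vs. CK change was 0.92 (adjusted p = 0.424). *GmIF7GT1* (TRINITY_DN21381_c0_g2), chosen after its values were seen, is named after the soybean isoflavone 7-O-glucosyltransferase. It held 33.3, 8.5 and 39.3 TPM in RW, 608, 22.0 and 24.6 TPM in DS, and 31.3, 25.5 and 72.3 TPM in CK. DS replicate 1 was more than 8 times as high as any other library, and the DS vs. CK change was 0.84 (adjusted p = 0.732). The other 2 isoflavone 7-O unigenes stood at −0.30 and −0.98 in DS vs. CK, and by limma 0 of the 3 were called in any comparison. At the unadjusted limit 1 was higher in RW vs. DS, beside 7.07% of all tested. The C-glucosyltransferase *UGT708D1* and the flavonoid 3-O enzyme *UGT78G1*, first studied in soybean and *M. truncatula*, had no called unigene either (0 of 3 and 0 of 1 in each comparison by limma, and 0 at an unadjusted p under 0.05 with the fold limit).

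The enzymes that lengthen flavonol glycosides belong to UGT79, and 0 of 8 were called in any comparison by limma. At the unadjusted limit 1 was lower in RW vs. DS, beside 4.95% of all tested. *FG3* (TRINITY_DN23976_c0_g1), the most abundant, named after a soybean enzyme that adds a second glucose, was even: 27.7, 15.1 and 15.7 TPM in RW, 19.0, 22.1 and 17.1 TPM in DS, and 20.9, 24.2 and 19.4 TPM in CK. Of 11 UGT71 members, a family with enzymes for flavonoids and abscisic acid, 0 were called in any comparison by limma. At the unadjusted limit 2 were higher in DS vs. CK, beside 5.34% of all tested. *UGT71A15* (TRINITY_DN19655_c0_g1) held 114, 37.6 and 88.4 TPM in RW, 169, 74.1 and 316 TPM in DS, and 86.0, 53.5 and 59.9 TPM in CK. Its DS vs. CK change was 1.27 (adjusted p = 0.216), and DS overlapped both other groups through DS replicate 2.

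UGT87 and UGT76 had negative medians in DS vs. CK and positive ones in RW vs. DS under all 3 scalings. By limma 0 of 8 UGT87 and 0 of 4 UGT76 members were called in any comparison. At the unadjusted limit 2 UGT76 members were lower in DS vs. CK and 3 higher in RW vs. DS, beside 8.94% and 7.07% of all tested. In RW vs. CK 1 UGT87 member was higher at that limit, beside 1.94% of all tested. The medians were −0.46 and 0.58 for UGT87, and −0.89 and 1.15 for UGT76. *UGT87A1* (TRINITY_DN22011_c1_g2) held 32.5, 12.4 and 11.1 TPM in RW, 13.5, 4.90 and 16.2 TPM in DS, and 18.5, 15.4 and 38.2 TPM in CK. *UGT76F1* (TRINITY_DN21819_c0_g2), chosen after its values were seen and from a family that in *Arabidopsis* acts on defence and auxin-related acids, held 35.3, 16.2 and 24.9 TPM in RW, 8.82, 3.48 and 13.3 TPM in DS, and 40.1, 19.8 and 23.8 TPM in CK. All DS libraries of *UGT76F1* were below all others, with −1.69 for DS vs. CK (adjusted p = 0.0632) and 1.56 for RW vs. DS (adjusted p = 0.0957).

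The largest DS vs. CK change of any member was not called. *UGT75D1* (TRINITY_DN9055_c0_g1), a piece of 374 bp and chosen after its values were seen, held 1.09, 1.42 and 0.32 TPM in RW, 0.41, 43.9 and 19.6 TPM in DS, and 0.64, 0 and 0 TPM in CK. Its change was 3.21 (SE 1.05, adjusted p = 0.116), and DS replicate 1 was at the level of the other groups. The protein O-glucosyltransferases were 0 of 7 called in each comparison by limma, with 2 lower in DS vs. CK at the unadjusted limit, beside 8.94% of all tested.

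The genes around glycosylation were counted on lists of their own. Among 67 other small-molecule glycosyltransferases whose descriptions the rule did not take, 9 were called higher in DS vs. CK and 3 lower. The shares were 13.4% and 4.48%, against 2.39% and 2.57% of all tested. In RW vs. DS 5 were called lower (7.46%, against 2.15%) and 1 higher (1.49%, against 1.79%). With 1 library left out, 5 to 8 were higher in DS vs. CK (5 without CK replicate 3 or DS replicate 1) and 0 to 3 lower (0 without CK replicate 1, CK replicate 3 or DS replicate 2). *AOG* (TRINITY_DN15076_c0_g3), named after the adzuki bean enzyme that stores abscisic acid as its glucose ester, held 18.3, 20.3 and 12.5 TPM in RW, 103, 71.1 and 89.6 TPM in DS, and 5.78, 17.9 and 9.80 TPM in CK (DS vs. CK 2.98, adjusted p = 0.00178). *UGT75L6* (TRINITY_DN16444_c0_g5), a crocetin glucosyltransferase by its gardenia namesake and from the component of *UGT73C3*, held 8.72, 6.51 and 9.77 TPM in RW, 82.1, 73.7 and 49.0 TPM in DS, and 7.88, 6.25 and 6.87 TPM in CK. Its changes were 3.09 for DS vs. CK (adjusted p = 0.000186) and −2.88 for RW vs. DS (adjusted p = 0.000305), and all 3 calls named here were kept in all 9 fits that left out 1 library. TRINITY_DN16444_c0_g7, of the same symbol and component, was also called in both comparisons (2.77 and −2.63). Pieces or copies of 1 gene can thus be counted more than once among the 9 higher unigenes, which was not tested.

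For the sugar donors, 1 of 55 unigenes was called higher in DS vs. CK (1.82%, against 2.39% of all tested) and 2 lower (3.64%, against 2.57%). *GAE1* (TRINITY_DN21682_c0_g1), which makes UDP-galacturonate for pectin, held 27.4, 29.8 and 16.2 TPM in RW, 328, 356 and 331 TPM in DS, and 26.2, 43.4 and 34.6 TPM in CK (DS vs. CK 3.28, adjusted p = 0.000197). *UGE1* (TRINITY_DN15245_c0_g1), which interconverts UDP-glucose and UDP-galactose, was lower in DS, with 50.5, 32.4 and 44.5 TPM in RW, 16.3, 9.49 and 8.03 TPM in DS, and 33.3, 40.5 and 65.3 TPM in CK (DS vs. CK −1.95, adjusted p = 0.00956). Both calls were kept in all 9 fits that left out 1 library. The other lower call, *UXS5* (TRINITY_DN15457_c1_g3), which makes UDP-xylose, was −1.69 (adjusted p = 0.0393) and was kept in just 2 of the 9, those without RW replicate 1 or 2.

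For flavonoid and isoflavonoid synthesis, which makes acceptors, 1 of 47 was called higher in DS vs. CK and 1 lower (2.13% each, against 2.39% and 2.57% of all tested). The higher was the chalcone synthase *CHS9* (TRINITY_DN22399_c0_g7), the first enzyme of flavonoid synthesis, with 0.85, 1.14 and 1.15 TPM in RW, 9.04, 42.1 and 6.55 TPM in DS, and 0.82, 1.2 and 0 TPM in CK. Its DS vs. CK change of 3.22 (adjusted p = 0.0189) was not called without CK replicate 3 (2.89). The lower was TRINITY_DN22788_c0_g3, matched to the flavonoid hydroxylase *CYP75B2* but described as a geraniol 8-hydroxylase, with 56.8, 49.6 and 81.7 TPM in RW, 12.4, 7.16 and 7.66 TPM in DS, and 62.1, 57.7 and 56.9 TPM in CK (−2.61, adjusted p = 0.000517).

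For the saponin backbone, 0 of 45 unigenes were called in DS vs. CK by limma. At the unadjusted limit 7 were higher and 3 lower, beside 5.34% and 8.94% of all tested. In RW vs. DS 3 were called lower (6.67%, against 2.15% of all tested). These became 0 without DS replicate 2, RW replicate 1 or RW replicate 3. Another list held 131 transporters described as DETOXIFICATION, MATE efflux or ABC transporter C family proteins, whose place in the cell was not tested. Of these, 7 were higher in DS vs. CK (5.34%, against 2.39% of all tested) and 5 lower (3.82%, against 2.57%). The counts became 2 higher without CK replicate 2 or 3, 11 higher without DS replicate 3, and 1 lower without CK replicate 1. Of 59 beta-glucosidases, which remove the sugar, 1 was higher in DS vs. CK (1.69%, against 2.39% of all tested) and 3 lower (5.08%, against 2.57%). The higher call ended in 7 of the 9 fits that left out 1 library, all but those without CK replicate 3 or DS replicate 2, and the lower calls became 0 in each of those 2 fits. Of 24 acyltransferases that act on glycosides, *3AT1* (TRINITY_DN23805_c0_g4), described as a putative transferase, was lower in both RW and DS than in CK, with 0, 0.94 and 0.32 TPM in RW, 0.72, 0.49 and 0.57 TPM in DS, and 37.1, 53.3 and 35.8 TPM in CK. Its RW vs. CK change of −4.95 (adjusted p = 0.00302) was the sole call of that comparison among all unigenes tested.

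Markers of leaf cell types were counted on the same fit, and their part in the UGT results was not tested. Summed mesophyll markers (30 unigenes, 27 tested) ran from 56099 to 78756 TPM in RW, 31095 to 88239 TPM in DS and 66017 to 90150 TPM in CK. The groups overlapped. In DS vs. CK 1 was called higher and 1 lower (3.7% each, against 2.39% and 2.57% of all tested), with a median of −0.7, beside −0.19 for all tested. At the unadjusted limit 1 was higher and 6 lower, beside 5.34% and 8.94% of all tested. Xylem and secondary wall markers (34 tested) summed to 131 to 551 TPM in RW, 56.6 to 247 TPM in DS and 414 to 1316 TPM in CK. In DS vs. CK 10 were called lower (29.4%, against 2.57% of all tested), with a median of −2.05. At the unadjusted limit 1 was higher and 19 lower in DS vs. CK, beside 5.34% and 8.94% of all tested. In RW vs. CK 2 were higher and 11 lower at that limit, beside 1.94% and 2.4%. The 10 became 0 without CK replicate 2 or 3 or DS replicate 1 or 2, and 3 without RW replicate 3. Epidermis and cuticle markers (34 tested) summed to 822 to 1020 TPM in RW, 1188 to 1637 TPM in DS and 1096 to 1538 TPM in CK. In DS vs. CK 4 were called higher (11.8%, against 2.39% of all tested) and 1 lower (2.94%, against 2.57%), with a median of −0.11. At the unadjusted limit 5 were higher and 5 lower, beside 5.34% and 8.94% of all tested. The 4 became 0 without DS replicate 2 and 1 without CK replicate 1 or 3. In RW vs. DS 6 were called lower (17.6%, against 2.15% of all tested), which became 3 without RW replicate 2 or 3. The one root and nodule marker found stayed between 0.32 and 2.83 TPM.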

How the data were processed

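Leaf RNA of 9 libraries (RW, DS and CK, 3 each) was measured by RNA-seq. Per the study's methods, the authors trimmed reads with Cutadapt, assembled them with Trinity, took the longest transcript of each cluster as the unigene and quantified it with Salmon. The processing notes also name HISAT2 2.0 and StringTie 1.3.0 without a role. The deposited values are TPM, already scaled for length and depth, so reads per unigene are unknown and no genome position is attached. Reads shared by near-identical unigenes were split by the authors' quantification. All per-sample columns were mapped (0 left unused).

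Unigenes with at least 1 TPM in 3 libraries (44538) were tested on log2(TPM + 1), a scale that understates changes of low unigenes, with limma 3.58.1 (R 4.3.3) using trended, robust variances (statmod 1.5.0). The fit held 3 group means over all 9 libraries, with 6 residual degrees of freedom and Benjamini-Hochberg adjustment over all tests. An exact permutation of 3 against 3 libraries cannot go below p = 0.1 and was not used. The fit was tested on simulated data. Named members were up to 12 called members per direction and comparison, the 10 with the highest mean, the most abundant of each family of 5 or more, any acting on abscisate, and the component of a crocetin glucosyltransferase that the study lists as a miRNA target. Members and lists were chosen with earlier results of these data known. From other lists, up to 3 called unigenes per direction and comparison could be named. Alternatives were pseudocounts of 0.1 and 5, a 5 TPM filter or none, pair-only fits, a replicate block, 2 other scalings, 1 unigene per component, unadjusted p and leaving out each library.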

Additional observations from a re-analysis of the deposited data

How the results depend on the processing

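No call changed sign in any alternative. The 12 members higher in DS vs. CK became 7 in the fit of the 6 libraries of the pair. With 1 unigene per component, where 52 members were tested, they became 6. At an unadjusted p under 0.05 they became 23, and with 1 library left out 4 to 13. The 2 lower became 1 under quantile normalization, 8 unadjusted, and 0 to 3 with 1 library left out. In RW vs. DS, the 8 lower became 4 in the pair-only fit and 5 with 1 unigene per component. Of the 9 members called in RW vs. DS, 6 were tested per component, and all 6 were called again. The 8 lower became 18 unadjusted, and 1 to 8 with 1 library left out. The 1 higher became 0 in the pair-only fit, 2 with the 5 TPM filter, 8 unadjusted, and 0 to 2 with 1 library left out. RW vs. CK gave 3 higher and 1 lower unadjusted, and 0 in every leave-one-out fit. The members' median for DS vs. CK was 0.30 under median-of-ratios scaling, 0.29 under quantile normalization, 0.27 with 1 unigene per component, and 0.07 to 0.28 with 1 library left out; all unigenes tested then had medians of −0.05 and −0.04 under those scalings, against −0.19 as deposited. For RW vs. DS it was −0.22 under quantile normalization and −0.22 to −0.01 with 1 library left out, and for RW vs. CK 0.01 to 0.18. Of the calls, 2 of 14 in DS vs. CK and 1 of 9 in RW vs. DS were kept in all 9 leave-one-out fits.

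Same-numbered replicates did not deviate together (correlations of −0.094 to 0.063), so the numbers were not read as pairs. With the replicate block, 11 members were called in DS vs. CK, 9 of the 14 among them, and in RW vs. DS 2 were higher and 4 lower. The settings listed above for single members leave the block out. It ended the DS vs. CK calls of *UGT73C6*, *UGT74F1*, *UGT89B1*, *UGT85A1* and TRINITY_DN24894_c1_g1. In RW vs. DS it ended the calls of *UGT73C3*, *UGT73C5*, *UGT73C6* and *UGT74F2*. The TPM table holds no depth, so a low count of calls cannot be set against reads.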
